A study of Mus musculus with 9 samples.

Results

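Integrins are cell-surface adhesion receptors built from 1 alpha and 1 beta chain, and the pairing sets what a cell can hold on to. In skeletal muscle the alpha7 chain pairs with beta1 to bind laminin in the basement membrane, alpha5 with beta1 binds fibronectin, alpha3 and alpha6 with beta1 bind laminins, alpha11 with beta1 binds fibrillar collagens, and alphav pairs with beta1, beta3 or beta5 to bind RGD-containing proteins such as vitronectin. The beta7 chain is best known from leukocytes, where it pairs with alpha4 in homing to the gut. Muscle cells are known to change their integrin chains as they differentiate.

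The genes described here were 10 integrin subunits out of 47728 genes listed, namely the alpha chains Itga3, Itga5, Itga6, Itga7, Itga11 and Itgav and the beta chains Itgb1, Itgb3, Itgb5 and Itgb7. They were chosen by name with earlier results of these data known, as were the gene lists used below. All 10 were found through their Ensembl identifiers and passed the filter on low counts. Itga11 passed it only through the day 5 libraries of Fkbp5 knockdown and control cells, and Itgb7 only through the day 0 libraries. The remaining 17 mouse integrin subunits were also looked up.

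Messenger RNA was sequenced from C2C12, an immortal mouse myoblast line that stops dividing and fuses into myotubes in culture. There were 9 libraries: Fkbp5 knockdown, Fkbp4 knockdown and control cells, each collected on days 0, 3 and 5 of differentiation. All of them were grown in 10% fetal bovine serum before day 0 and in insulin-transferrin-selenium at 1% from day 0, with later medium changes that name HS, a term the labels do not define. Fkbp5 and Fkbp4 encode FK506-binding proteins, prolyl isomerases that work with the chaperone Hsp90. The labels do not give the knockdown method, what the control cells received, or whether the libraries came from separate cultures. With 1 library per genotype and day no value has a replicate of its own: knockdown comparisons used the 3 days, and day comparisons the 3 genotypes, in place of replicates. The p-values therefore measure only the spread between these samples that additive genotype and day differences leave, which may be technical.

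Total counts lay between 3932372 and 5568486 per library, a 1.42-fold range. Levels are normalised CPM, that is, reads of a gene scaled to a common library size, and 3 counts, the limit that a count of 0 allows, correspond to 0.529 to 0.786 CPM on this scale, covering counting error only. Fkbp5 stood at 4.45, 3.17 and 4.59 CPM on days 0, 3 and 5 in its knockdown, against 20.0, 7.32 and 14.7 CPM in control cells (log2 fold change −1.72, SE 0.24, adjusted p = 0.00842). Leaving out the day 5 library of that knockdown gave an adjusted p of 0.0536. Fkbp4 stood at 59.9, 27.0 and 23.9 CPM in its knockdown, against 240, 143 and 137 CPM in control cells (−2.28, SE 0.12, adjusted p = 1.97e-05). The summed level of 6 myotube markers was 67.3 to 220 CPM on day 0, 3182 to 5689 CPM on day 3 and 6726 to 11457 CPM on day 5, and that of 5 myoblast markers 6532 to 8495 CPM over all days. Within the myoblast sum the members did not move together: reads of desmin, Des, were 18593, 18726 and 16230 on day 5 against 3928, 4249 and 4499 on day 0 in Fkbp5 knockdown, Fkbp4 knockdown and control cells, while those of vimentin, Vim, were 19432, 19131 and 15665 against 27794, 34396 and 26936. Markers of other cell types were low. The summed level over the 9 libraries was 1.45 to 6.16 CPM for 6 leukocyte markers, 0.599 to 1.89 CPM for 4 endothelial, 1.18 to 4.58 CPM for 3 platelet, 0 to 2.4 CPM for 4 adipocyte, 0 to 0.241 CPM for 3 osteoblast and 0.799 to 4.58 CPM for 3 epithelial markers. The defining markers Cd3e, Cdh5, Gp9, Pf4 and Adipoq were at 0 in every library, while Cd68 reached 3.74, Itga2b 4.58, Tek 1.47 and Fabp4 2.4 CPM. Mitochondrially encoded genes took 10.06% of the reads of the day 5 Fkbp5 knockdown library and 1.775% to 5.01% elsewhere; every integrin change called below kept its call and direction when these genes were left out before scaling.

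The promoters of 4 subunits are shown, 2 whose genes were higher and 2 whose genes were lower on both later days than on day 0 in every genotype. Itga7 and Itgb1 were also higher on both later days in every genotype; Itga7 had no entry, and the Itgb1 window, not shown, held 0 E-boxes. Each window runs from 250 bases before to 50 bases after a RefSeq start on GRCm38.p6, written 5′ to 3′ on the gene's strand, and capitals mark every E-box, CANNTG on either strand, the motif bound by myogenic factors such as MyoD. The windows are chr16:33829415-33829714 (plus strand) for Itgb5, chr15:103366742-103367041 (minus strand) for Itga5, chr11:95076665-95076964 (minus strand) for Itga3 and chr15:102231886-102232185 (minus strand) for Itgb7.
Itgb5: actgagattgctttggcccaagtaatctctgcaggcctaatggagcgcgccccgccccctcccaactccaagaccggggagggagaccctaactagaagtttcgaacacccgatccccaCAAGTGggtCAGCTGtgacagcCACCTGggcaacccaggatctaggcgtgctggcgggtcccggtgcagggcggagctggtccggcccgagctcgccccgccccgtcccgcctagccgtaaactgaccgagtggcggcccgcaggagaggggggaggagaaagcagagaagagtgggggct
Itga5: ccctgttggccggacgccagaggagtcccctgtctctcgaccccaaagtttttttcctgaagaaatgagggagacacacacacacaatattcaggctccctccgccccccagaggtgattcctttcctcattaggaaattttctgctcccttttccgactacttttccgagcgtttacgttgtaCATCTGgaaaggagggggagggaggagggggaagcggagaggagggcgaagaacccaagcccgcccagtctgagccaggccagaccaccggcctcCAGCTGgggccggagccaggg
Itga3: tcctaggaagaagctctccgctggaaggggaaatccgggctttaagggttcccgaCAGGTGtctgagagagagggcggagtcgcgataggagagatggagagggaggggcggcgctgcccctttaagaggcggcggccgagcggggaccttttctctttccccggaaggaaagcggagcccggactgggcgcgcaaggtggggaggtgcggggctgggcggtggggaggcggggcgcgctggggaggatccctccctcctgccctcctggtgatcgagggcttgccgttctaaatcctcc
Itgb7: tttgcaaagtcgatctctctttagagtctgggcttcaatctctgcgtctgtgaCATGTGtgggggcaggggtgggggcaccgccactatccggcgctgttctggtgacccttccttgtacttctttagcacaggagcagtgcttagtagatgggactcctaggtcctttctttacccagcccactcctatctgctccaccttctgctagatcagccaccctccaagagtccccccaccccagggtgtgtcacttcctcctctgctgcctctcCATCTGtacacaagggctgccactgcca
The Itgb5 window held 3 E-boxes and the Itga5 window 2, and in each of these 1 match reads CAGCTG, the core often bound by MyoD and myogenin, which is itself an E-box and is counted in both. The Itgb7 window held 2 E-boxes and the Itga3 window 1, with no CAGCTG. RefSeq windows were matched for 7 of the 10 subunits, 8 windows in all because Itga3 has 2 starts. CAGCTG occurred in 2 of these 8 windows, and in 16.3% of 32851 mouse promoter windows of the same length. Any E-box occurred in 72.3% of all windows. The AP-1 motif TGANTCA (7.81% of windows) matched once, in the second Itga3 window, and CATTCC, the MCAT motif of TEAD factors (14.7% of windows), matched once, in the Itgb1 window. All motifs were read on both strands, and a match describes the letters only. Itga6 and Itgb3 also had no entry.

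On day 5 against day 0, Itga7, Itga5, Itga11, Itgb1 and Itgb5 rose and Itga3 and Itgb7 fell, so 5 of 10 subunits passed the test upwards and 2 downwards. Among all 12844 genes tested, 29.3% were called higher and 28.6% lower in that comparison. On day 3 against day 0, Itga7, Itga5, Itga6 and Itgb5 rose and Itga3, Itgb3 and Itgb7 fell, 4 up and 3 down, beside 26.4% and 25.8% of all genes. Between day 5 and day 3 Itgb5 alone passed the test, upwards, beside 3.77% called higher and 2.39% called lower overall. The median log2 fold change of the 10 subunits was 0.33 on day 5 and 0.27 on day 3, both against day 0, while the median over all genes was 0.0085 and 0.00071. The 10 were chosen with earlier results of these data known, and Itga11 and Itgb7 passed the low-count filter only where they were high. These shares and medians therefore only describe the 10. Each call is from edgeR's quasi-likelihood test at an adjusted p under 0.05 over all genes. The levels of 4 subunits in the 3 day 5 libraries lay wholly above those of the 3 day 0 libraries, those of 2 lay wholly below, and 4 overlapped, beside 28.8% wholly above and 28.2% wholly below among all genes. Myotube markers moved with the same days, and the part of this rise in the integrin changes was not tested. In cultures of this kind fewer cells of a type and less RNA per cell cannot be told apart.

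**Figure D1:**
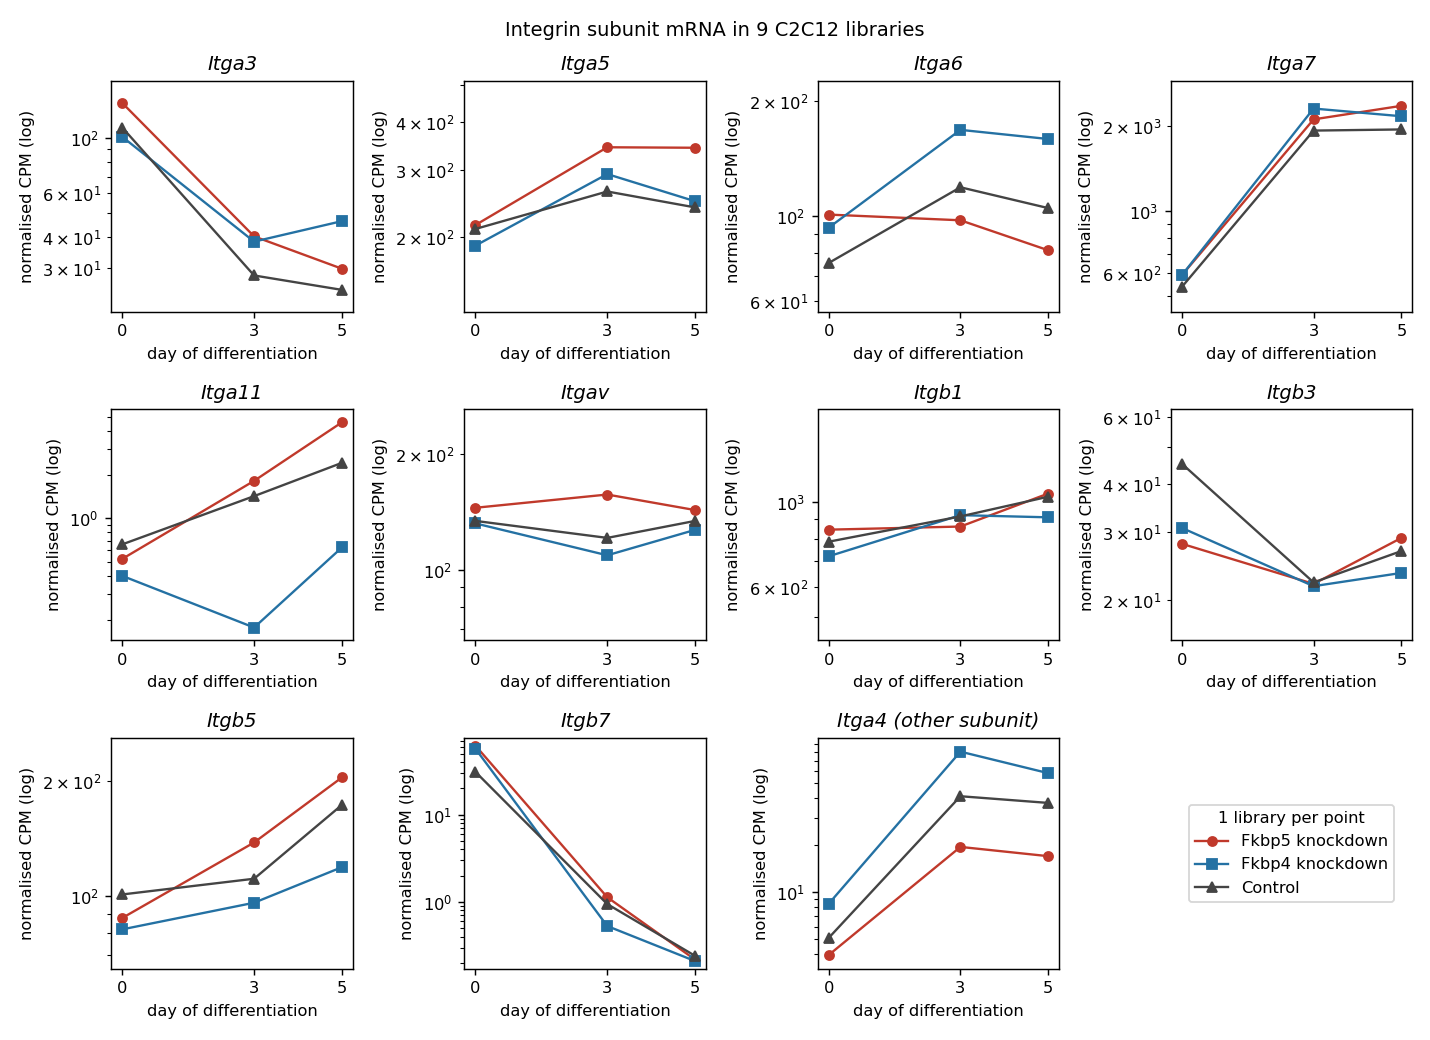
Normalised CPM on a log axis against day of differentiation for the 10 subunits and for Itga4, 1 library per point, joined by genotype. Itga7 ended between 1946 and 2361 CPM on day 5 against 536 to 590 CPM on day 0, Itgb7 ended between 0.210 and 0.241 CPM against 30.8 to 61.5 CPM, and the Itga4 curves stand apart by genotype on days 3 and 5.

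Of the laminin-binding alpha chains, Itga7 rose and Itga3 fell. Itga7 (ENSMUSG00000025348, GRCm38 chr10:128933818-128958282, plus strand), whose product with beta1 is the main laminin-binding integrin of muscle fibres, had 590, 2113 and 2361 CPM on days 0, 3 and 5 in Fkbp5 knockdown cells, 590, 2309 and 2168 CPM in Fkbp4 knockdown cells and 536, 1928 and 1946 CPM in control cells. Every day 3 and day 5 library lay above every day 0 library, and the 2 later days overlapped. The log2 fold change was 1.89 on day 3 (SE 0.10, adjusted p = 2.81e-07) and 1.91 on day 5 (SE 0.10, adjusted p = 1.69e-07), both against day 0, and 0.03 on day 5 against day 3 (SE 0.10, adjusted p = 0.905). Its level rested on at least 2251 reads per library. The rise from day 0 to day 5 within a genotype was 4.01-fold in Fkbp5 knockdown cells, 3.67-fold in Fkbp4 knockdown cells and 3.63-fold in control cells.

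Itga3 (ENSMUSG00000001507, GRCm38 chr11:95044474-95076801, minus strand), a laminin-binding chain common in epithelia, went the other way. It had 138, 40.3 and 29.9 CPM on days 0, 3 and 5 in Fkbp5 knockdown cells, 101, 38.4 and 46.4 CPM in Fkbp4 knockdown cells and 110, 28.1 and 24.6 CPM in control cells. The day 0 libraries were all higher than any later library. Its log2 fold change was −1.72 on day 3 (SE 0.18, adjusted p = 2.4e-05) and −1.80 on day 5 (SE 0.19, adjusted p = 1.46e-05). Within genotypes, Itga3 was 4.62-fold lower on day 5 than on day 0 in Fkbp5 knockdown cells, 2.17-fold lower in Fkbp4 knockdown cells and 4.46-fold lower in control cells.

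Itga6 (ENSMUSG00000027111, chr2:71745616-71858416, plus strand), another laminin-binding alpha chain, did not follow a common course. It had 101, 97.6 and 81.5 CPM on days 0, 3 and 5 in Fkbp5 knockdown cells, 93.3, 168 and 159 CPM in Fkbp4 knockdown cells and 75.5, 119 and 105 CPM in control cells. The later libraries were higher than day 0 in Fkbp4 knockdown and control cells, and not in Fkbp5 knockdown cells. Over all genotypes it changed on the log2 scale by 0.48 on day 3 (SE 0.17, adjusted p = 0.0394) and 0.31 on day 5 (SE 0.17, adjusted p = 0.151). The day 3 call was lost without the Fkbp4 knockdown library of day 0 (adjusted p = 0.239) or day 3 (0.136), or without the control library of day 0 (0.164), day 3 (0.126) or day 5 (0.0518), and with no genotype term (0.127). Without the day 0 library of the Fkbp5 knockdown the day 5 change became 0.63 and passed the test (adjusted p = 0.000978), as it did with no low-count filter (0.0311).

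The fibronectin and RGD-binding alpha chains changed less than Itga7 and Itga3. Itga5 (ENSMUSG00000000555, chr15:103344286-103366763, minus strand), the fibronectin receptor chain, had 215, 343 and 342 CPM on days 0, 3 and 5 in Fkbp5 knockdown cells, 190, 292 and 248 CPM in Fkbp4 knockdown cells and 210, 263 and 239 CPM in control cells. All 6 later libraries were higher than all 3 day 0 libraries, and the log2 fold change was 0.53 on day 3 (SE 0.11, adjusted p = 0.00203) and 0.41 on day 5 (SE 0.11, adjusted p = 0.00821). The day 5 call was lost without the day 5 library of the Fkbp5 knockdown (0.32, adjusted p = 0.056). Itgav (ENSMUSG00000027087, chr2:83724397-83806916, plus strand), the shared partner of beta1, beta3 and beta5, had 145, 157 and 143 CPM in Fkbp5 knockdown cells, 132, 109 and 127 CPM in Fkbp4 knockdown cells and 134, 121 and 134 CPM in control cells on days 0, 3 and 5. Its days overlapped, with log2 fold changes of −0.10 on day 3 (SE 0.10, adjusted p = 0.409) and −0.03 on day 5 (SE 0.10, adjusted p = 0.831). Of its annotated exon bases, 5.9% overlap Gm13684 on the other strand, and the kit named in the labels does not mark strand, so reads there cannot be assigned to either gene.

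Itga11 (ENSMUSG00000032243, chr9:62677826-62783982, plus strand), the alpha chain for fibrillar collagen, was close to the detection limit. It had 2, 8 and 21 reads on days 0, 3 and 5 in Fkbp5 knockdown cells, 2, 1 and 3 reads in Fkbp4 knockdown cells and 3, 6 and 10 reads in control cells. On the CPM scale these were 0.524, 1.81 and 4.59, then 0.400, 0.176 and 0.629, then 0.660, 1.42 and 2.41. Only Fkbp5 knockdown and control cells had more than 3 reads in a library. Itga11 passed the low-count filter only through their day 5 libraries, with 21 and 10 reads. Its calls on day 5 and between the knockdowns are therefore not independent of that filter. The day 5 log2 fold change was 2.09 (SE 0.55, adjusted p = 0.00731). It was no longer called by DESeq2 (adjusted p = 0.0624) or without the day 0 library of the Fkbp5 knockdown (1.5, adjusted p = 0.078).

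Among the beta chains, Itgb1 (ENSMUSG00000025809, chr8:128685654-128733200, plus strand), the common partner of most of these alpha chains, had the highest CPM of the 4 beta chains in every library. It had 845, 861 and 1050 CPM on days 0, 3 and 5 in Fkbp5 knockdown cells, 720, 922 and 910 CPM in Fkbp4 knockdown cells and 786, 915 and 1030 CPM in control cells. The day 5 libraries were all above the day 0 libraries. The log2 fold change was 0.20 on day 3 (SE 0.10, adjusted p = 0.128) and 0.35 on day 5 (SE 0.10, adjusted p = 0.0153). The day 5 call was lost without the Fkbp5 knockdown library of day 5 (adjusted p = 0.0518), the Fkbp4 knockdown library of day 0 (0.0764), or the control library of day 0 (0.0772) or day 5 (0.058), and the day 3 change was called without the Fkbp5 knockdown library of day 3 (adjusted p = 0.0379).

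Itgb5 (ENSMUSG00000022817, chr16:33829665-33949338, plus strand), an alphav partner that binds vitronectin, had 87.7, 138 and 204 CPM on days 0, 3 and 5 in Fkbp5 knockdown cells, 81.9, 96.1 and 119 CPM in Fkbp4 knockdown cells and 101, 111 and 173 CPM in control cells. It was higher on each later day in each genotype, with a log2 fold change of 0.33 on day 3 (SE 0.13, adjusted p = 0.0468), 0.84 on day 5 (SE 0.13, adjusted p = 0.000214) and 0.51 on day 5 against day 3 (SE 0.12, adjusted p = 0.0383). The day 3 call was lost with DESeq2 (adjusted p = 0.0587), with no genotype term (0.181), and without the Fkbp5 knockdown library of day 0 (0.198) or day 3 (0.108), the Fkbp4 knockdown library of day 3 (0.139) or the control library of day 0 (0.0616). The call between day 5 and day 3 was lost without the Fkbp5 knockdown library of day 3 (0.0506) or day 5 (0.167), the Fkbp4 knockdown library of day 3 (0.114), or the control library of day 0 (0.0552), day 3 (0.181) or day 5 (0.142).

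Itgb3 (ENSMUSG00000020689, chr11:104608000-104670476, plus strand), the beta chain of the classical vitronectin receptor, had 28.0, 22.0 and 29.0 CPM on days 0, 3 and 5 in Fkbp5 knockdown cells, 30.8, 21.7 and 23.5 CPM in Fkbp4 knockdown cells and 45.3, 22.2 and 26.8 CPM in control cells. On day 3 the counting intervals of both knockdown to control ratios included 0 on the log2 scale, and the control library of day 0 was the highest of the 9. The log2 fold change was −0.65 on day 3 (SE 0.16, adjusted p = 0.0062) and −0.38 on day 5 (SE 0.16, adjusted p = 0.0597). The day 3 call was lost when the 3 control libraries were left out (−0.42, adjusted p = 0.0885). The day 5 change was called without the Fkbp5 knockdown library of day 0 (adjusted p = 0.0182) or day 5 (0.0303), and with no low-count filter (0.0371).

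Itgb7 (ENSMUSG00000001281, chr15:102215995-102231944, minus strand) showed the largest fold change of the 10 subunits on days 3 and 5 against day 0. Reads fell to 5 on day 3 and 1 on day 5 in Fkbp5 knockdown cells, against 235 on day 0. They fell to 3 and 1 in Fkbp4 knockdown cells, against 284 on day 0, and to 4 and 1 in control cells, against 140 on day 0. On the CPM scale the day 0 values were 61.5 in Fkbp5 knockdown cells, 56.7 in Fkbp4 knockdown cells and 30.8 in control cells, and every day 5 value was between 0.210 and 0.241. The log2 fold change was −5.84 on day 3 (SE 0.25, adjusted p = 5.39e-08) and −7.64 on day 5 (SE 0.31, adjusted p = 2.92e-08). With 1 read on day 5 the size is known loosely: the log2 ratio of day 5 to day 0 was −8.14 in Fkbp5 knockdown cells (95% exact counting interval −13.45 to −5.65), −8.08 in Fkbp4 knockdown cells (−13.39 to −5.59) and −7.00 in control cells (−12.31 to −4.50). The 6 leukocyte markers summed to 2.88 to 6.16 CPM on day 0, 2.27 to 2.83 CPM on day 3 and 1.45 to 3.93 CPM on day 5. Most of these reads came from Cd68, at most 3.74 CPM, and Itgb2, at most 1.98 CPM, while Ptprc did not exceed 0.44 CPM and Cd3e was at 0. The part of such markers in the Itgb7 result was not tested. None of the exon bases of Itgb7 overlap another annotated gene.

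**Figure D2:**
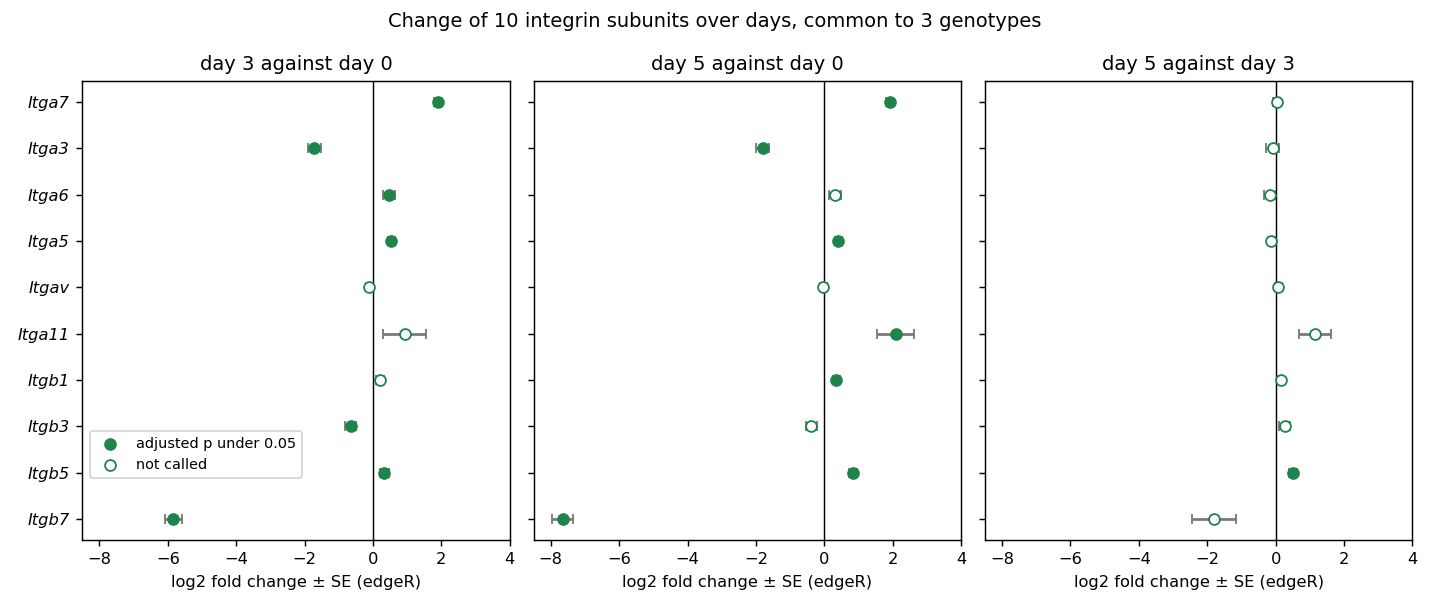
Log2 fold change with its SE from edgeR for each subunit on day 3 against day 0, day 5 against day 0 and day 5 against day 3, with filled points for an adjusted p under 0.05. Itgb7 at −7.64 and Itga3 at −1.80 lie left of 0 on day 5, Itga7 at 1.91 lies right of it, and between the later days 1 point, Itgb5, is filled.

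Levels of different genes can be compared only per length, so CPM were divided by the summed exon length of each gene and expressed as shares of all alpha or all beta chain mRNA. Itga7 made up 74.2%, 74.0% and 74.4% of alpha chain mRNA on day 5 in Fkbp5 knockdown, Fkbp4 knockdown and control cells, against 43.7%, 47.6% and 44.1% on day 0. The Itga7 share was thus the first among the alpha chains in all 9 libraries, including those of day 0. Itga5 was second at every point, with 17.6%, 13.9% and 15.0% on day 5 against 26.2%, 25.2% and 28.4% on day 0 in the same order of genotypes. The share of Itga5 declined although its CPM rose. Itga3, next in order on day 0 at 14.5%, 11.5% and 12.8%, stood at 1.33%, 2.24% and 1.33% on day 5. These shares depend on the length used. With the longest transcript in place of exon length, Itga7 made up 82.1%, 80.7% and 81.4% on day 5 against 54.4%, 58% and 55.1% on day 0. Itga5 then held 10.8%, 8.4% and 9.11% against 18.1%, 17% and 19.7%. In Fkbp4 knockdown cells on day 0, Itga3 was then at 8.19%, below Itga6 at 8.56%.

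The Itga7 to Itga5 ratio per length was 4.21, 5.33 and 4.96 on day 5, against 1.67, 1.89 and 1.55 on day 0, for Fkbp5 knockdown, Fkbp4 knockdown and control cells. With the longest transcript as length it was 7.59, 9.6 and 8.94 on day 5, against 3.01, 3.41 and 2.8 on day 0. The Itga3 to Itga6 ratio was 0.581, 0.461 and 0.37 on day 5, against 2.16, 1.71 and 2.29 on day 0, so Itga3 was below Itga6 on day 5 and above it on day 0 in every genotype, except that with the longest transcript in place of exon length the day 0 ratio in Fkbp4 knockdown cells was 0.957.

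Itgb1 held 79.5%, 83.8% and 81.4% of beta chain mRNA on day 5, against 79.3%, 77.7% and 79.7% on day 0. Itgb5 was second among the beta chains in all 9 libraries, with 17.7%, 12.6% and 15.7% on day 5 against 9.45%, 10.2% and 11.7% on day 0. Itgb7 came next on day 0, at 8.50%, 9.03% and 4.6%, and was at 0.0243%, 0.0285% and 0.0281% on day 5. Itgb3 was at 1.52%, 1.5% and 1.46% on day 5, against 1.82%, 2.30% and 3.18% on day 0. The Itgb5 to Itgb3 ratio rose to 11.7, 8.44 and 10.7 on day 5, against 5.2, 4.42 and 3.69 on day 0. Counts per gene do not separate splice forms, so the muscle-specific tail variants of beta1 and alpha7 were not analysed here.

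**Figure D3:**
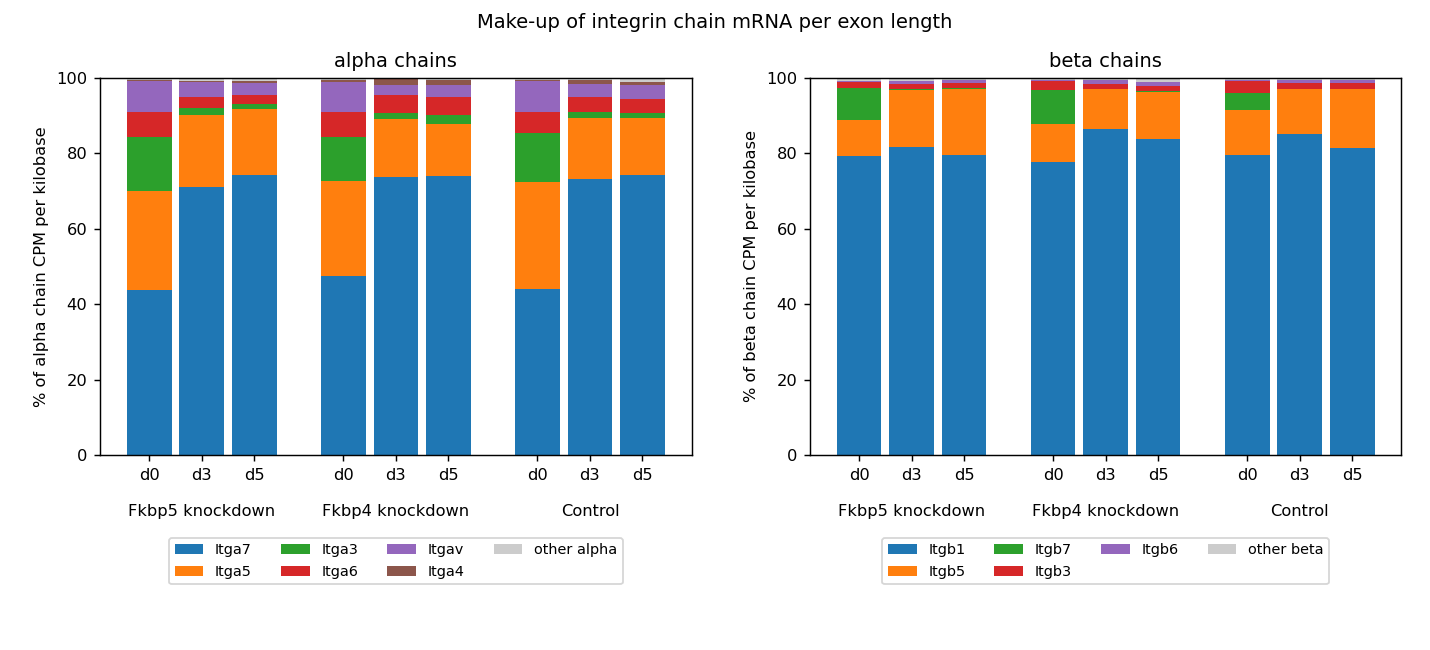
Stacked shares of alpha chain (left) and beta chain (right) CPM per kilobase of exon, in %, in each library, ordered by genotype and day. Itga7 fills 43.7% to 47.6% of the alpha bar on day 0 and 74.0% to 74.4% on day 5, and the Itgb7 band, 4.6% to 9.03% on day 0, is 0.0732% to 0.158% on day 3 and at most 0.0285% on day 5, too thin to see.

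Against control, no subunit of the 10 passed the test in either knockdown in edgeR. For the Fkbp5 knockdown, 0 of 10 were called beside 0.685% of all genes higher and 1.40% lower. An unadjusted p under 0.05 was found for 2 of the 10, beside 2027 of all 12844 genes. For the Fkbp4 knockdown 0 of 10 were called beside 0.265% higher and 0.825% lower. Here 4 of the 10 had an unadjusted p under 0.05, beside 2103 of all 12844 genes. Of the subunits, limma voom called 1 in the Fkbp5 and 0 in the Fkbp4 comparison, and DESeq2 called 0 in each. The median log2 fold change of the 10 subunits was 0.19 in the Fkbp5 comparison and −0.03 in the Fkbp4 comparison, against 0.0041 and 0.0175 over all genes. The knockdowns share the same 3 control libraries, so their differences from control are not independent.

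In the Fkbp5 knockdown comparison the 2 subunits with the smallest p were Itgb7 and Itga5. Itgb7 had a log2 fold change of 0.92 (SE 0.25, adjusted p = 0.0974) and was called by limma voom (0.0294) and with no low-count filter (0.0307). That value rests on day 0, where 61.5 CPM in Fkbp5 knockdown cells stood against 30.8 CPM in control cells, a log2 ratio of 1.00 with a 95% counting interval of 0.69 to 1.31. Without the control library of day 0 the change was −0.11, and the later libraries hold 1 to 5 reads. Itga5 had a log2 fold change of 0.31 (SE 0.11, adjusted p = 0.194), and was higher in the Fkbp5 knockdown than in control cells on all 3 days. Its log2 ratio was 0.03 on day 0 (−0.10 to 0.17), 0.38 on day 3 (0.27 to 0.49) and 0.52 on day 5 (0.40 to 0.63), each interval covering counting error only.

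Itga3 gave 0.37 (SE 0.19, adjusted p = 0.37), Itgav 0.20 (SE 0.10, adjusted p = 0.364) and Itga7 0.18 (SE 0.10, adjusted p = 0.417). These 3 were also higher in the Fkbp5 knockdown than in control cells on each day. How many of all genes lay on the same side on all 3 days is not reported here. This pattern therefore only describes the subunits, wherever it is given. Itga7 was higher than in control cells on each day in the Fkbp4 knockdown too. Its log2 ratios there were 0.14, 0.26 and 0.16 on days 0, 3 and 5. Itga11 at 0.57 (SE 0.46), Itgb5 at 0.13 (SE 0.13), Itgb1 at 0.02 (SE 0.10), Itga6 at −0.06 (SE 0.17) and Itgb3 at −0.21 (SE 0.16) had adjusted p-values between 0.58 and 0.966. Itgb3 at day 0 was lower than in control cells, with a log2 ratio of −0.70 (−1.04 to −0.35), while its ratio was 0.12 on day 5 (−0.26 to 0.50).

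In the Fkbp4 knockdown comparison Itga11 gave the largest fold change, −1.84 (SE 0.61, adjusted p = 0.182), with 1 to 3 reads per library in that knockdown. Itgb7 gave 0.73 (SE 0.24, adjusted p = 0.189), again from day 0, where 56.7 CPM in Fkbp4 knockdown cells stood against 30.8 CPM in control cells. Without the Fkbp4 knockdown library of day 0 it was −0.22, and without the control library of day 0 −0.32. Itga6 gave 0.48 (SE 0.17, adjusted p = 0.21) and was higher than in control cells on each day, by log2 ratios of 0.31, 0.50 and 0.60 on days 0, 3 and 5. Without the day 0 library of the Fkbp5 knockdown, and with no low-count filter, it was called (adjusted p = 0.0398 and 0.00222). Itgb5 gave −0.35 (SE 0.13, adjusted p = 0.217) and was lower on each day. The other 6 had adjusted p-values of 0.352 or more, with log2 fold changes between −0.28 for Itgb3 and 0.38 for Itga3.

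**Figure D4:**
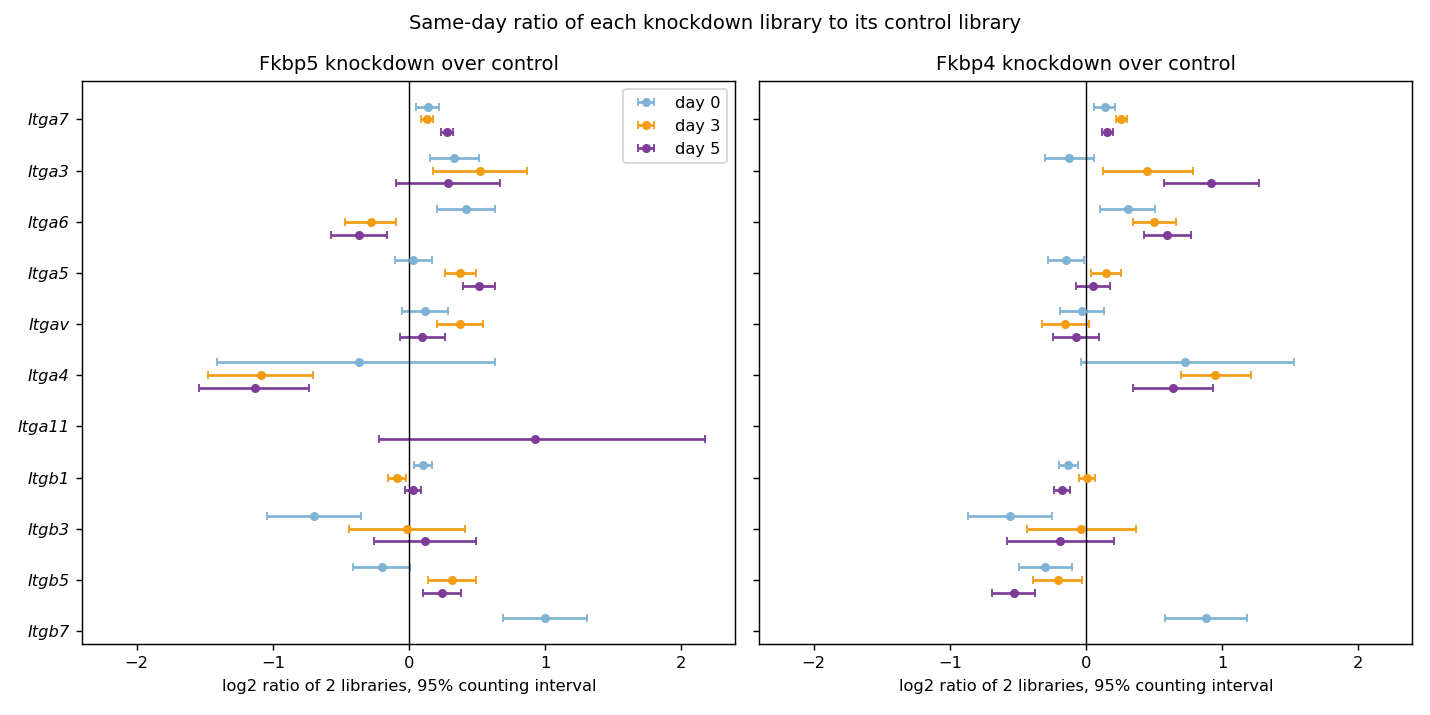
Log2 ratio of each knockdown library to the control library of the same day, with exact 95% counting intervals, for subunits with at least 10 reads in both libraries. Itga4 lies left of 0 in the Fkbp5 panel and right of 0 in the Fkbp4 panel on all 3 days, with day 0 intervals that include 0, and Itga6 lies on opposite sides on days 3 and 5.

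Set directly against each other, the knockdowns differed in 2 of 10 subunits, both higher in the Fkbp5 knockdown, beside 6.83% of all genes higher and 6.02% lower. Itgb5 was higher by a log2 fold change of 0.48 (SE 0.13, adjusted p = 0.0328), with 87.7, 138 and 204 CPM in Fkbp5 knockdown cells against 81.9, 96.1 and 119 CPM in Fkbp4 knockdown cells on days 0, 3 and 5. It was not called without the Fkbp5 knockdown library of day 3 (adjusted p = 0.0726) or day 5 (0.174) or the Fkbp4 knockdown library of day 3 (0.0885) or day 5 (0.171). Itga11 was higher by 2.41 (SE 0.57, adjusted p = 0.0214) on 2, 8 and 21 reads against 2, 1 and 3 reads, and was not called without the Fkbp4 knockdown library of day 3 (0.0841) or day 5 (0.154). It passed the low-count filter through the day 5 libraries of Fkbp5 knockdown and control cells, and through none of the Fkbp4 knockdown. Itga6 was at −0.54 (SE 0.17, adjusted p = 0.0621), and passed the test in DESeq2 (0.0337), in limma voom (0.0473), with no low-count filter (6.09e-05), without the Fkbp5 knockdown library of day 0 (0.00246) and without the Fkbp4 knockdown library of day 0 (0.0205). Itgav at 0.28 (SE 0.10, adjusted p = 0.0867) and Itga5 at 0.29 (SE 0.11, adjusted p = 0.102) did not pass, and Itga7 was at −0.002 (SE 0.10, adjusted p = 0.993).

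Whether a knockdown's difference from control changed between day 0 and the later days was tested in a model with that interaction. Of the 10 subunits 0 were called in edgeR for either knockdown, beside 0.0374% of all 13372 genes for each, and DESeq2 and limma voom also called 0. For the Fkbp5 knockdown 2 subunits had an unadjusted p under 0.05, Itga6 at −0.75 (SE 0.20, adjusted p = 0.962) and Itgb3 at 0.75 (SE 0.27, adjusted p = 0.962). Itga6 was higher than in control cells on day 0, at 101 against 75.5 CPM, and lower on days 3 and 5, at 97.6 against 119 and 81.5 against 105 CPM. For the Fkbp4 knockdown Itga3 was the 1 such subunit, at 0.86 (SE 0.29, adjusted p = 1). Its log2 ratio to control was −0.12 on day 0 (−0.30 to 0.06), 0.45 on day 3 (0.12 to 0.79) and 0.92 on day 5 (0.57 to 1.27). Among all 13372 genes, 604 in the Fkbp5 and 396 in the Fkbp4 interaction had an unadjusted edgeR p under 0.05. This model leaves 2 residual degrees of freedom.

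Itga4 (ENSMUSG00000027009, chr2:79255426-79333123, plus strand), an alpha chain that pairs with beta1 or beta7 and binds fibronectin and VCAM-1, was the integrin subunit with called knockdown differences against control, and it lies outside the 10. It had 3.93, 19.5 and 17.0 CPM on days 0, 3 and 5 in Fkbp5 knockdown cells, 8.39, 79.9 and 58.1 CPM in Fkbp4 knockdown cells and 5.06, 41.3 and 37.4 CPM in control cells. On each day the Fkbp5 knockdown was the lowest and the Fkbp4 knockdown the highest. The log2 fold change was −1.01 in the Fkbp5 knockdown against control (SE 0.17, adjusted p = 0.0157), 0.78 in the Fkbp4 knockdown against control (SE 0.14, adjusted p = 0.0353) and −1.79 in the Fkbp5 against the Fkbp4 knockdown (SE 0.16, adjusted p = 0.000284). The reads were 15, 86 and 78 in Fkbp5 knockdown cells, 42, 453 and 277 in Fkbp4 knockdown cells and 23, 175 and 155 in control cells.

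The direct difference between the knockdowns in Itga4 was called with each library left out in turn. The Fkbp5 difference from control was not called without the Fkbp5 knockdown library of day 3 (adjusted p = 0.0653) or day 5 (0.131) or the control library of day 3 (0.0784) or day 5 (0.12). The Fkbp4 difference was not called without the Fkbp5 knockdown library of day 5 (0.0547), the Fkbp4 knockdown library of day 3 (0.23) or day 5 (0.15), or the control library of day 0 (0.127), day 3 (0.284) or day 5 (0.105). Summed myotube markers in Fkbp5 knockdown, Fkbp4 knockdown and control cells were 67.3, 220 and 86.5 CPM on day 0. They were 3182, 5689 and 5411 CPM on day 3, and 6726, 11457 and 10428 CPM on day 5. On each day their order was that of Itga4, and their part in the Itga4 differences was not tested. Exons of Itga4 overlap the opposite-strand gene Cerkl over 8.04% of their bases.

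Over the days Itga4 rose by 2.97 on day 3 (SE 0.17, adjusted p = 3.95e-07) and by 2.69 on day 5 (SE 0.18, adjusted p = 5.94e-07) on the log2 scale, while Itgb7, its leukocyte partner, fell. Of the 17 other subunits, 5 were abundant enough to test. On day 5 against day 0, 4 of these rose, beside 29.3% of all genes called higher and 28.6% lower. They were Itga4, Itga10 at 2.15 (SE 0.30, adjusted p = 0.000123), Itgb6 at 1.95 (SE 0.18, adjusted p = 5.88e-06) and Itgb8 at 1.42 (SE 0.30, adjusted p = 0.00207). Itga10 is a collagen-binding alpha chain, and Itgb6 and Itgb8 pair with alphav and bind latent TGF-beta. Itga2b, the platelet chain and the fifth, was at 0.97 (SE 0.43, adjusted p = 0.0744). These chains were minor: per length none exceeded 1.48% of its chain in any library.

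The first list of ligands held fibronectin, vitronectin and other ligands of RGD-binding integrins. Of 14 tested, 6 rose and 4 fell on day 5 against day 0, beside 29.3% of all genes called higher and 28.6% lower. Fibronectin, Fn1, the ligand of alpha5 with beta1, was chosen for its role after its values were seen, and had 1749, 2973 and 3782 CPM on days 0, 3 and 5 in Fkbp5 knockdown cells, 1376, 2016 and 3043 CPM in Fkbp4 knockdown cells and 1980, 2036 and 3898 CPM in control cells, and rose by 1.07 on day 5 (SE 0.14, adjusted p = 7.59e-05). Periostin, Postn, a matricellular ligand of alphav integrins, rose by 5.63 (SE 0.25, adjusted p = 4.64e-08). Osteopontin, Spp1, an RGD ligand, fell by 3.50 (SE 0.14, adjusted p = 2.95e-08). It had 642, 455 and 675 CPM on day 5 in Fkbp5 knockdown, Fkbp4 knockdown and control cells against 6404, 5660 and 7907 CPM on day 0. The latent TGF-beta binding protein Ltbp1 fell by 1.60 (SE 0.11, adjusted p = 6.69e-07).

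Of 14 tested laminins, nidogens and other basement membrane genes, 7 rose and 3 fell on day 5, beside the same 29.3% and 28.6%. Lama2, the laminin alpha chain of muscle basement membrane bound by alpha7 with beta1, had 26.2, 117 and 115 CPM on days 0, 3 and 5 in Fkbp5 knockdown cells, 23.8, 95.2 and 88.9 CPM in Fkbp4 knockdown cells and 15.4, 69.6 and 99.3 CPM in control cells. It rose by 2.23 (SE 0.15, adjusted p = 6.67e-07), and Lama4 rose by 3.33 (SE 0.32, adjusted p = 9.55e-06). Nid1, the laminin-binding nidogen, fell by 1.72 (SE 0.16, adjusted p = 6.41e-06). All 5 tested fibrillar collagen genes rose, led by Col1a1 at 2.05 (SE 0.17, adjusted p = 3.07e-06) and Col5a1 at 1.55 (SE 0.11, adjusted p = 9.3e-07). The median log2 fold change on day 5 was 0.09 for the ligands of RGD-binding integrins, 0.42 for the basement membrane genes and 1.46 for the fibrillar collagens.

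Fewer ligands were called in either knockdown against control than between the knockdowns, as was so for all genes (268 and 140 against 1650). Over all genes, 0.685% were called higher and 1.40% lower in the Fkbp5 knockdown against control. The Fkbp4 knockdown gave 0.265% and 0.825%. Against control, 1 of 14 ligands of RGD-binding integrins was called lower in the Fkbp5 knockdown. It was nephronectin, Npnt, the ligand of alpha8 with beta1, with a log2 fold change of −0.59 (SE 0.11, adjusted p = 0.0248). In the same comparison Col4a2 was higher by 0.72 (SE 0.15, adjusted p = 0.0383) among the 14 basement membrane genes. Col1a1 was higher by 0.85 (SE 0.16, adjusted p = 0.0296) among the 5 fibrillar collagens. Postn was lower in the Fkbp4 knockdown, by a log2 fold change of −1.07 (SE 0.21, adjusted p = 0.0412). Each of these 4 calls was lost without the control library of day 3 (adjusted p = 0.0878 for Npnt, 0.213 for Col4a2, 0.139 for Col1a1 and 0.247 for Postn). Leaving out the control library of day 5 also ended all 4 (0.12, 0.216, 0.0806 and 0.239 in the same order), and leaving out certain other libraries ended some of them. Between the knockdowns, the Fkbp5 knockdown was higher in 3 and lower in 2 of 14 ligands of RGD-binding integrins. It was higher in 4 of 14 basement membrane genes and in 3 of 5 fibrillar collagens, beside 6.83% of all genes higher and 6.02% lower. Col1a1 had 381, 1112 and 1120 CPM on days 0, 3 and 5 in Fkbp5 knockdown cells against 145, 359 and 644 CPM in Fkbp4 knockdown cells (1.28, SE 0.17, adjusted p = 0.00165). Postn was at 1.49 (SE 0.20, adjusted p = 0.00211) and Npnt at −0.66 (SE 0.11, adjusted p = 0.00482). These 3 kept their calls with each library left out in turn. Without all day 5 libraries Postn (adjusted p = 0.095) and Npnt (0.0514) lost them, and with no day term all 3 did. Summed myotube markers in Fkbp5 knockdown, Fkbp4 knockdown and control cells were 67.3, 220 and 86.5 CPM on day 0 and 6726, 11457 and 10428 CPM on day 5. Their part in the ligand differences was not tested.

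Inside the cell, 8 of 18 tested integrin activators and actin linkers rose and 5 fell on day 5, beside 29.3% and 28.6% of all genes. Filamins link integrin tails to actin. Flnc, the muscle filamin, rose by 1.78 (SE 0.13, adjusted p = 9.67e-07), while Flna fell by 0.91 (SE 0.14, adjusted p = 0.00029). Of 16 adhesion signalling genes, 4 rose and 5 fell. Fyn, a Src-family kinase, rose by 1.70 (SE 0.13, adjusted p = 1.65e-06) and paxillin, Pxn, a focal adhesion scaffold, by 0.91 (SE 0.09, adjusted p = 1.49e-05), while Apbb1ip, a Rap1 effector that recruits talin, fell by 1.39 (SE 0.18, adjusted p = 7.53e-05). The median log2 fold change on day 5 was 0.11 for the activators and linkers and −0.07 for the signalling genes.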

How the data were processed

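Polyadenylated RNA of 9 C2C12 libraries was sequenced with a TruSeq RNA kit, per the labels; this kit does not mark strand. The deposited files hold raw counts of reads per gene; the submitters' processing notes list, with no role or order, build mm10 and the programs featureCounts 1.4.6 (of Subread), HISAT2 2.0.2 and CASAVA 1.8. Of 47728 Ensembl identifiers, 47223 matched GENCODE M21, and unmatched ones took at most 0.046% of a library's reads. No 2 libraries were identical.

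Counts were scaled by TMM (factors 0.942 to 1.04) and tested with edgeR 4.0.16 (R 4.3.3), in a quasi-likelihood model with additive genotype and day terms (4 residual degrees of freedom, common biological coefficient of variation 0.126) on the 12844 genes left by filterByExpr, with Benjamini-Hochberg adjustment over all of them and a threshold of 0.05. SEs are the log2 fold change over the square root of F. Counting intervals are exact at 95% and, without molecular identifiers, cover counting error only. Lengths are GENCODE exon unions, with the longest transcript as an alternative. The additive edgeR fit was tested on simulated counts with changes put in the Fkbp5 knockdown libraries alone, for that knockdown against control. Day comparisons, the interaction model, DESeq2 and limma voom were not tested in this way.

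The members and gene lists were chosen with earlier results of these data known. Named genes are the 10 subunits, Fkbp4, Fkbp5, up to 4 called genes per list, comparison and direction with the largest fold change, and, for Itga7 and Itga5, the 3 genes most correlated in log2 CPM (prior count 2, mean CPM of at least 10). Alternatives were DESeq2 1.42.0, limma 3.58.1 voom, DESeq2 size factors, no low-count filter, a mean of at least 5 CPM, mitochondrial genes left out, no block term, and each library, day or genotype left out. Their use on genes other than the 10 subunits was added after seeing the data. Some genes of the lists are not reported here.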

Additional observations from a re-analysis of the deposited data

How the results depend on the processing

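The 10 subunits in 6 comparisons gave 60 log2 fold changes, 17 of them called, each recomputed under up to 22 alternatives. Of the recomputed called values 264 kept their call and 47 lost it, with no change of direction. Of those not called, 733 kept their side, 19 passed the test and 39 changed sign. The changes of Itga7, Itga3 and Itgb7 on days 3 and 5 against day 0, of Itga5 on day 3 and of Itgb5 on day 5 were called under every alternative run. With no low-count filter 1 subunit was called in each knockdown against control, and limma voom called 1 in the Fkbp5 comparison. Between the knockdowns 1 was called at a mean of at least 5 CPM, a filter that Itga11, at most 4.59 CPM in any library, did not pass. The model with no block term called 0 between the knockdowns and 0 on day 5 against day 3, and ended the day 3 calls of Itga6 (adjusted p = 0.127) and Itgb5 (0.181). Sign changes outside the left-out libraries concerned Itga3 in the Fkbp5 against the Fkbp4 knockdown (0.042 with limma voom, 0.17 with no block term) and Itga7 there (0.0029 at a mean of at least 5 CPM, 0.0014 without mitochondrial genes). The main values there were −0.0067 (SE 0.18) for Itga3 and −0.0020 (SE 0.10) for Itga7, both smaller in size than their SEs. The cause of these sign changes was not tested.

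Over all genes, 268 were called in the Fkbp5 knockdown against control, 866 with no low-count filter and 3 with no block term. The Fkbp4 knockdown gave 140, with 690 unfiltered, 228 in DESeq2 and 0 with no block term. The Fkbp5 against the Fkbp4 knockdown gave 1650, and 4 with no block term; day 5 against day 3 gave 791, with 1578 unfiltered and 127 with no block term. The interactions gave 5 each, with 107 (Fkbp5) and 95 (Fkbp4) unfiltered, 0 and 1 in limma voom, and 10 for Fkbp4 in DESeq2.

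Leaving out a library, day or genotype moved the counts over all genes between 36 and 296 (Fkbp5 against control), 4 and 259 (Fkbp4 against control), 250 and 2106 (Fkbp5 against Fkbp4) and 179 and 924 (day 5 against day 3). Subunits called ranged from 0 to 1 (Fkbp4 against control), 0 to 3 (Fkbp5 against Fkbp4), 4 to 7 (day 3 against day 0) and 0 to 1 (day 5 against day 3). Log2 fold changes of uncalled subunits that crossed 0 ranged in the Fkbp5 comparison from −0.37 to 0.11 for Itga6, −0.046 to 0.092 for Itgb1, −0.38 to 0.058 for Itgb3 and −0.11 to 1.00 for Itgb7. In the Fkbp4 comparison they ranged from −0.055 to 0.13 for Itga5 and −0.32 to 0.83 for Itgb7. Between the knockdowns the ranges were −0.31 to 0.28 for Itga3, −0.064 to 0.063 for Itga7 and −0.080 to 0.24 for Itgb3. Itgav ran from −0.060 to 0.024 on day 5 against day 0. On day 5 against day 3, Itga3 ran from −0.41 to 0.10, Itga7 from −0.047 to 0.086 and Itgav from −0.0012 to 0.18. Of 174 calls in other named genes, 91 were kept under every alternative. Every fit already compares genotypes within days and days within genotypes; the model with no block term drops that.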

Other observations

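Proteins that bind integrin tails or sit beside integrins in the membrane were also measured. Of 6 tail-binding modulators, 2 rose and 3 fell on day 5 against day 0, beside 29.3% of all genes higher and 28.6% lower, with a median log2 fold change of −0.11. Itgb1bp2, melusin, a muscle-specific protein that binds the beta1 tail, had 72.9, 148 and 101 CPM on day 5 in Fkbp5 knockdown, Fkbp4 knockdown and control cells, against 0.524, 2.8 and 0.44 CPM on day 0, and rose by 6.39 (SE 0.33, edgeR adjusted p = 1.11e-07). In the Fkbp5 against the Fkbp4 knockdown it was at −1.26 (SE 0.23, edgeR adjusted p = 0.00823). That call was lost without the Fkbp4 knockdown library of day 5 (0.058) and with no block term (1). Summed myotube markers were 67.3 CPM in Fkbp5 knockdown and 220 CPM in Fkbp4 knockdown cells on day 0. On day 5 they were 6726 and 11457 CPM, and their part was not tested. Dok1 and Dab2, adaptors that bind beta tails, fell by 1.45 (SE 0.13, edgeR adjusted p = 5.36e-06) and 1.18 (SE 0.13, edgeR adjusted p = 2.67e-05).

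Of 11 membrane partners, 3 rose and 5 fell on day 5, with a median of −0.19. The tetraspanin Cd82 rose by 1.68 (SE 0.12, edgeR adjusted p = 1.12e-06) and the heparan sulphate proteoglycan Sdc4 fell by 1.59 (SE 0.11, edgeR adjusted p = 8.62e-07). The tetraspanin Cd9 had 441, 341 and 300 CPM on days 0, 3 and 5 in Fkbp4 knockdown cells, against 672, 510 and 423 CPM in control cells (−0.56, SE 0.10, edgeR adjusted p = 0.0263), and the adjusted p was 0.0838 to 0.202 when single Fkbp4 knockdown or control libraries were left out.

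Across the 9 libraries, the genes whose log2 CPM followed Itga7 most closely among 9655 genes were Plbd2 (Pearson r 0.9987), Gpc1 (0.9986) and Macrod1 (0.9958). For Itga5 they were Ctso (0.9833), A330074K22Rik (0.9804) and Ampd3 (0.9773). These values describe shared variation over 3 days and 3 genotypes.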
